A study of Mus musculus with 9 samples.

Results

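YFP-positive cardiomyocytes (YfpCM) were compared with cultured c-kit-positive cardiac stem cells (eCSCs) over all detected genes. The comparison used 6 of the 9 Illumina mouse bead arrays of the series, 3 of each kind, chosen by sample title. All mice were C57BL/6J-background animals of a B6.129X1 stock with the allele Gt(ROSA)26Sortm1(EYFP)Cos/J, in which Cre recombinase switches on a YFP reporter. For the YfpCM samples a lentivirus brought Cre under c-kit control, the mice received 1 subcutaneous dose of 200 mg per kg isoproterenol, which stimulates beta-adrenoceptors and damages myocardium, and YFP-positive cells of the left ventricular apex were collected by cell sorting 28 days later. The eCSCs came from the same strain, were c-kit-positive and negative for the leukocyte antigen CD45, and were harvested at passage 4. Normal adult cardiomyocytes of this strain, also on 3 arrays, entered the statistical fit only. The treatment text of every sample, eCSCs and adult cells included, describes the isoproterenol injection, and the YfpCM titles say in vitro although the design speaks of cells sorted out of hearts. Neither point is settled by the labels. A reporter of this kind marks every cell in which the c-kit-controlled Cre acted, together with its descendants. The labels do not state how many mice went into a sample, so that p-values measure only how these samples vary, and that variation may be technical. Cell identity, culture and the injured heart as a source differ together between the groups, and their shares cannot be told apart.

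A level below is the normalized log2 intensity of the probe that stands for a gene, and a difference is the YfpCM mean minus the eCSC mean on that log2 scale. Arrays of a group correlated at 0.975 to 0.987 (YfpCM) and 0.981 to 0.992 (eCSC) over genes, and arrays of the 2 groups at 0.646 to 0.682, as a description across genes. The labelled cell types were checked against marker genes fixed as lists. Summed linear intensities of 10 cardiomyocyte markers were 157570, 168769 and 149897 on the YfpCM arrays, against 112, 96 and 124 on the eCSC arrays. Kit, the receptor that defines eCSCs, had levels of 8.68, 7.40 and 8.66 in YfpCM and was detected on none of the 3 eCSC arrays. The YfpCM arrays also carried markers of other cells. The endothelial sum was 19572 to 20950 over 13 genes in YfpCM, against 334 to 368 in eCSCs, although Kdr, a defining endothelial receptor, was near background in both groups and was not called. The fibroblast sum was 8298 to 10616 over 11 genes in YfpCM against 648 to 665 in eCSCs, and the erythroid sum 24413 to 30925 over 4 genes against 21 to 31. Of the 11 fibroblast genes, 10 were called higher and 1 lower (difference -2.03). Leukocyte markers summed to 7612, 2375 and 4270 in YfpCM and to 355, 404 and 630 in eCSCs over 13 genes, of which 11 were called higher and 1 lower. Mast cell markers summed to 1621 to 2532 in YfpCM and 53 to 81 in eCSCs over 6 genes. Bulk arrays cannot tell fewer cells of a type from less RNA per cell.

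**Figure D1:**
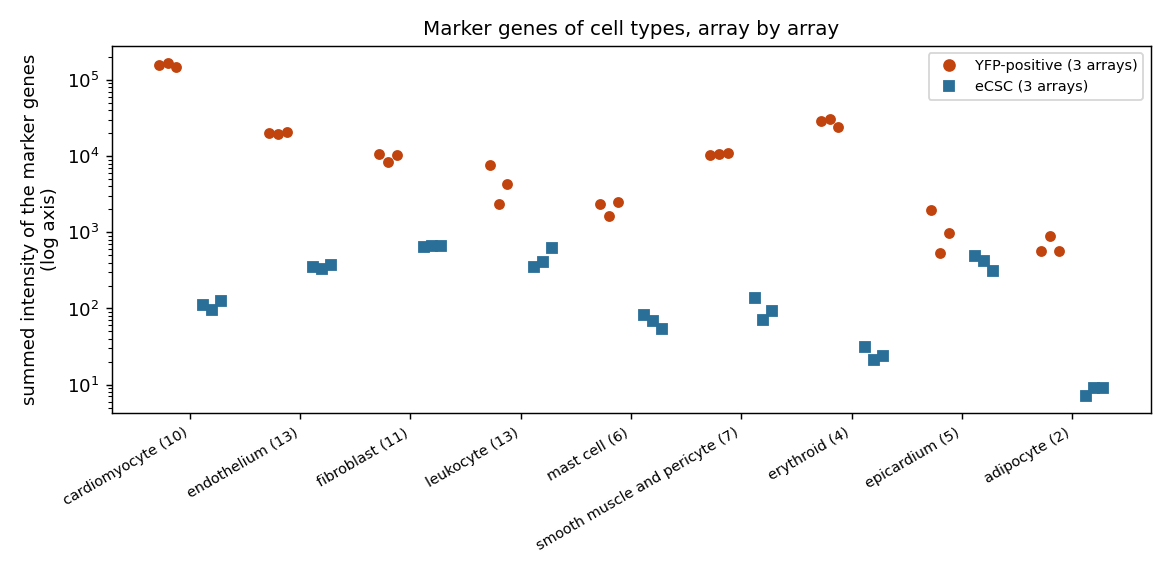
Summed intensity of marker genes (vertical axis, log scale, linear intensity units) for 9 cell types, with the number of genes summed in parentheses; each point is 1 array, YfpCM (circles) left of eCSC (squares). Cardiomyocyte sums of 149897 to 168769 in YfpCM stand over 96 to 124 in eCSCs, and the sum of every other class also lies higher in YfpCM on all 3 arrays.

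YfpCM replicate 2 stood somewhat apart from replicates 1 and 3, with lower levels of Kit, keratins, leukocyte markers and several growth genes. Without it, 7034 genes were called, against 7314 with all arrays. Xist, the transcript of the silenced X chromosome in female cells, had levels of 9.62, 10.06 and 10.08 in YfpCM and 10.12, 10.73 and 10.18 in eCSCs. Eif2s3y, a gene of the Y chromosome named here after its values were seen, had levels of 5.97, 5.12 and 5.77 in YfpCM, detected on all 3 arrays, and was detected on no eCSC array. Xist and Eif2s3y were therefore found together on each YfpCM array. The difference in Eif2s3y missed the threshold in limma (adjusted p = 0.052). The remaining sex-linked gene tested, also of the Y chromosome, was detected on all 3 eCSC arrays and was not called (difference -0.27). Y-linked transcripts were thus not absent from eCSCs, and the cause of these levels was not tested.

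Of 10024 genes tested, 7314 differed between YfpCM and eCSCs at an adjusted p under 0.05 (73%; limma, Benjamini-Hochberg over all genes). Of these, 3446 were higher in YfpCM (34.4% of genes tested) and 3868 were lower (38.6%). A difference of at least 2-fold was reached by 4585 genes (45.7%), 2296 upward (22.9%) and 2289 downward (22.8%). That number was 2423 without background correction and 2493 with the authors' normalized values. The arrays of the 2 groups did not overlap in 76.1% of genes tested, with all YfpCM arrays above in 35.9% and below in 40.2%. The median difference over all genes was -0.10, with quartiles of -0.92 and 0.87. These shares are the background against which each gene list has to be read, since most genes of these cells differed. The split depends on the scaling: 47.1% of calls were higher after quantile normalization, 34.9% after median scaling, 60.7% after median scaling to the probes found on all 9 arrays and 32.8% without normalization, with medians of all genes of -0.49, 0.26 and -0.54 under those 3 alternatives. Detection also enters the counts: 1162 tested genes were detected on all YfpCM and no eCSC array, and 269 the other way round, so that members tested are not all members of a list. Where only probes detected on all 6 arrays were tested, the leading count fell by over 1.5 times in the lists of amino acid transporters, mitochondrial regulators, glycogen, triglyceride, immunoproteasome, hypoxia, WNT, growth factors, insulin and IGF, axon guidance, Hox genes and keratins. Median scaling also moved the leading count by over 1.5 times in the iron, p53, endoplasmic reticulum, translocon, autophagy, clock, glucocorticoid and Hippo lists. Where a gene was detected on no array of a group, its fold is given as a lower bound ("at least"). Where it was detected on some arrays of a group only, the fold uses measured levels near background there and is open to the background correction.

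**Figure D2:**
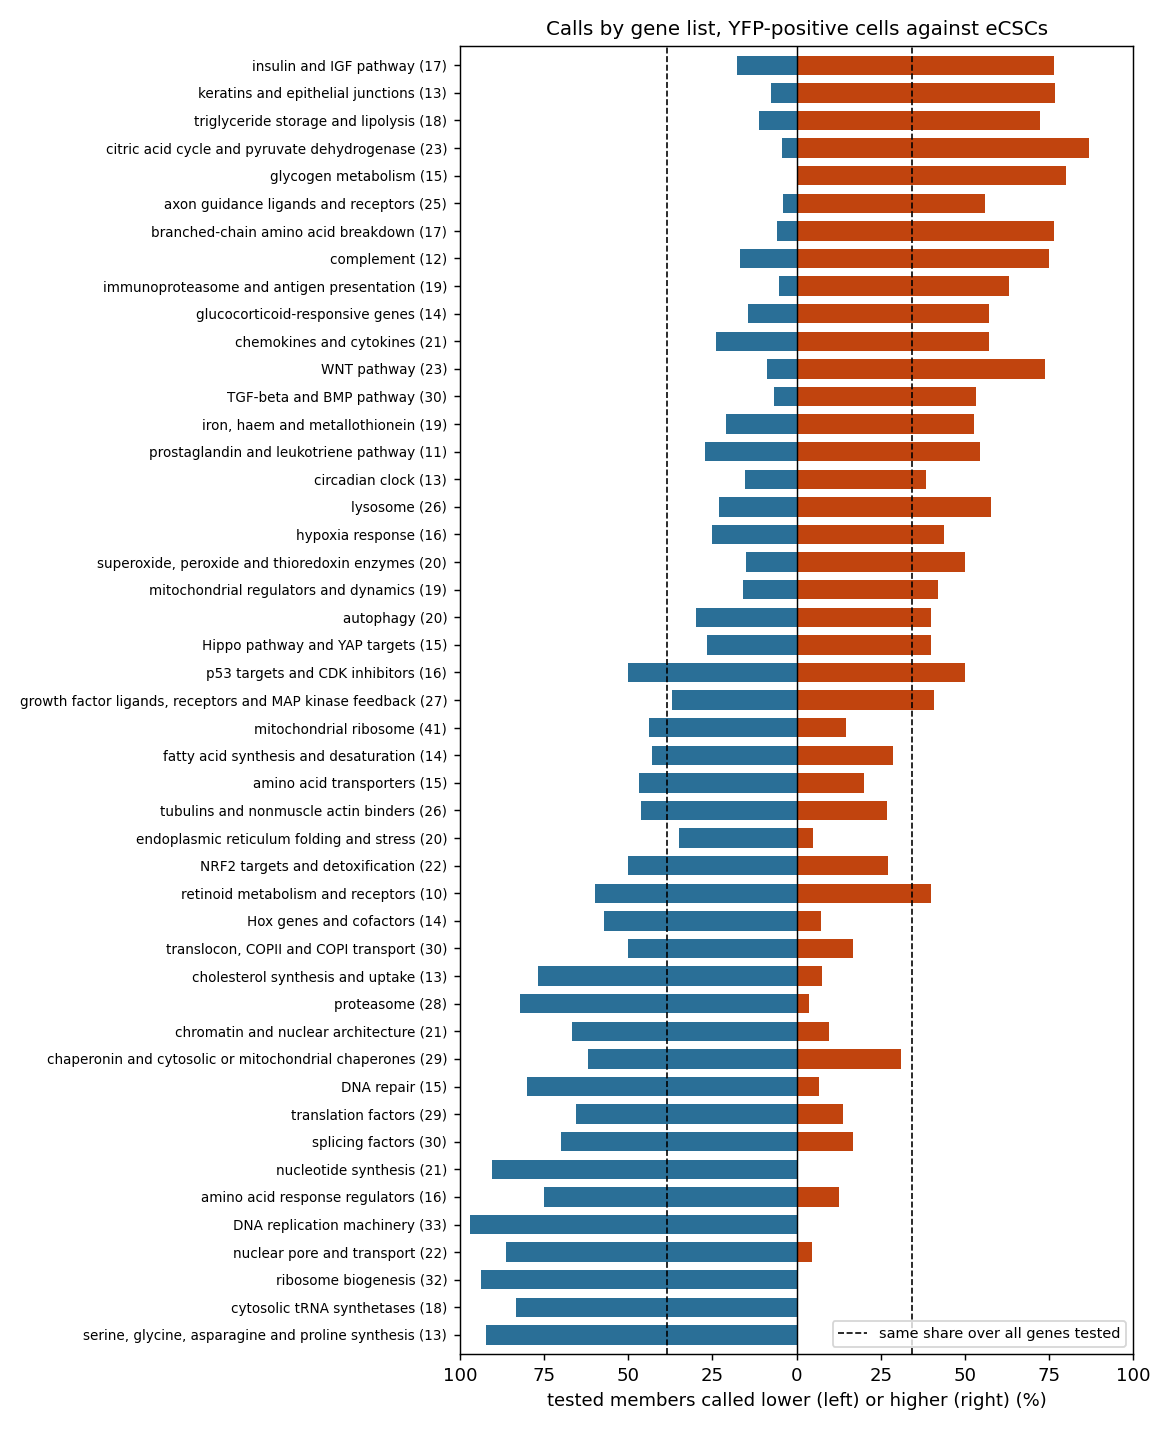
Percent of tested members (number in parentheses) called lower in YfpCM (blue, left) or higher (orange, right) for 47 gene lists, ordered by median difference; dashed lines mark 38.6% lower and 34.4% higher over all 10024 genes. Synthesis and growth lists lie at the bottom and fuel, insulin and IGF lists at the top; lists in the middle (amino acid transporters, superoxide enzymes, p53 targets, autophagy, hypoxia, Hippo, growth factors) change the sign of their median with the scaling.

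Cells that lack amino acids, or whose protein folding is disturbed, phosphorylate the initiation factor eIF2, which favours translation of the transcription factor Atf4. Atf4 and its partners then raise genes for amino acid synthesis and uptake, tRNA charging and, at higher stress, cell death. Among 16 regulators and targets tested, 12 fell and 2 rose (median difference -1.64). Trib3, a pseudokinase that Atf4 induces and that feeds back on the response, had levels of 6.01, 6.34 and 6.76 in YfpCM, against 12.64, 12.73 and 12.40 in eCSCs. Trib3 was 74.7-fold lower in YfpCM (difference -6.22, SE 0.27, adjusted p = 7.13e-11). Chac1, which breaks down glutathione, was 19.3-fold lower, with levels of 7.67, 7.59 and 8.74 in YfpCM against 12.33, 12.25 and 12.23 in eCSCs. Nupr1, a small stress-induced chromatin protein, was 13.3-fold lower and Ddit3 (CHOP), the factor tied to cell death in this response, 6.41-fold lower. Atf4 itself fell less, with levels of 11.08, 10.96 and 11.45 in YfpCM and 12.16, 12.60 and 12.49 in eCSCs (2.38-fold lower, adjusted p = 2.75e-05). The 2 members that rose were Atf3, an immediate early partner of Atf4, and Vldlr, a lipoprotein receptor. Atf3 had levels of 10.16, 9.50 and 10.55 in YfpCM against 8.32, 8.54 and 8.84 in eCSCs, 2.84-fold higher. The call of Atf3 was lost after median scaling (difference 0.77) and without normalization (0.72). Vldlr was 2.62-fold higher by its brightest probe, with 2 further probes also higher, but 2 dimmer probes of the gene were lower.

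Promoter windows of these genes (250 bases before to 50 after the gene start, RefSeq, GRCm38.p6) were searched for the amino acid response element TGATGNAA on both strands; capitals mark the matches. Asns and Trib3 are shown as the strongest falls with a match, Chac1 and Aars as members of 2 further functions, and Atf3 because it carries the element and rose. The windows are chr6:7693160-7693459 (minus strand), chr2:152344011-152344310 (minus), chr2:119350992-119351291 (plus), chr8:111033592-111033891 (plus) and chr1:191183284-191183583 (minus), in the same order.
Asns: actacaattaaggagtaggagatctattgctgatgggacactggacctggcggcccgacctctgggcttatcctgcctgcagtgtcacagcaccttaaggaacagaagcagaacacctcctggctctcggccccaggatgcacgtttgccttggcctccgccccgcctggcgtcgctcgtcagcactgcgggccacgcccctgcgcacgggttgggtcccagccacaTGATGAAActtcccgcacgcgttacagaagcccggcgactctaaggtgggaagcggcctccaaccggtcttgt
Trib3: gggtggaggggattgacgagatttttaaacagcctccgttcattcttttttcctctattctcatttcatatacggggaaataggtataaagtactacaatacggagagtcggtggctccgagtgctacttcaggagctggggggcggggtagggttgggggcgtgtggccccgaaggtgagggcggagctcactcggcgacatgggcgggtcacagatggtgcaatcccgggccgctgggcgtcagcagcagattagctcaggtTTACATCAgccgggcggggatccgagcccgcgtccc
Chac1: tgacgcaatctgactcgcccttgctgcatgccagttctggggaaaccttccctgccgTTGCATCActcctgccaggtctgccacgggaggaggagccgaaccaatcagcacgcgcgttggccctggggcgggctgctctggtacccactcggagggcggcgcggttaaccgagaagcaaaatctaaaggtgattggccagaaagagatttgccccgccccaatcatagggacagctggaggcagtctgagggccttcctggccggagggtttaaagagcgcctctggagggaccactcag
Aars: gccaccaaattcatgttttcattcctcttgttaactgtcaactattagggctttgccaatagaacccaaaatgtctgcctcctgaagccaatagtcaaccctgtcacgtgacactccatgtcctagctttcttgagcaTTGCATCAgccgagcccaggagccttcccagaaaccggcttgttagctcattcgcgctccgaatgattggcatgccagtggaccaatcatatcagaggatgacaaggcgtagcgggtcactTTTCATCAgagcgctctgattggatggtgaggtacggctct
Atf3: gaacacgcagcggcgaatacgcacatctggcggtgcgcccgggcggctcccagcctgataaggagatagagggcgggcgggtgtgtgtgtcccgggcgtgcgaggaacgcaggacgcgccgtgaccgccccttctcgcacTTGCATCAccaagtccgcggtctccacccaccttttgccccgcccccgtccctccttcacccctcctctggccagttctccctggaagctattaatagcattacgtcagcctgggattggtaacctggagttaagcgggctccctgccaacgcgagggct
The element stood at -23 from the gene start in Asns, at 14 in Trib3, at -193 in Chac1, at -112 and 9 in Aars and at -110 in Atf3, counting the first base of the gene as 0. Of 17 windows of 15 regulators, 6 held a match (35.3%), and of 11 windows of 11 tRNA synthetases 4 (36.4%), against 3.97% of 32851 mouse promoter windows. Windows of serine, glycine, asparagine and proline enzymes held it in 1 of 13 (7.69%). None of these matches overlapped a match to the other motifs searched, which include the related cAMP and ATF element TGACGTCA. The lists were drawn from knowledge of this response, so that these shares describe the lists and are not a test. A match is not a binding site, and the window of Atf3, which rose, matched as well.

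Enzymes that make serine, glycine, asparagine and proline, and the mitochondrial folate enzymes that turn serine carbon into formate for purines, fell almost as a block. Of 13 members tested, 12 were lower in YfpCM and none higher (median difference -3.63, or -3.33 with undetected members at their bound). Phgdh, the first enzyme of serine synthesis, had levels of 6.46, 4.77 and 5.62 in YfpCM, against 11.68, 11.35 and 11.75 in eCSCs. It was 63.0-fold lower in YfpCM (difference -5.98, SE 0.32), and -5.55 without YfpCM replicate 2, the lowest of its group. Asns, the asparagine synthetase, had levels of 6.99, 7.08 and 7.60 in YfpCM and 13.07, 13.01 and 12.93 in eCSCs, a 55.0-fold lower level (adjusted p = 4.01e-12). Bcat1, the cytosolic transaminase of branched-chain amino acids, was 60.2-fold lower. Psat1, the second enzyme of serine synthesis, was 20.0-fold lower. Aldh1l2 and Mthfd2, mitochondrial folate enzymes, were 28.4-fold and 17.3-fold lower. Groups that did not overlap were a condition for picking members of a list by size, and 76.1% of all genes tested had them. The member that was not called, Aldh1l1, is the cytosolic counterpart of Aldh1l2 and had a difference of 0.09; it was named after its values were seen.

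Of 15 amino acid transporters tested, 7 fell and 3 rose (median difference -0.30, which turned to 0.40 with median scaling to the probes found on all 9 arrays). These shares were 46.7% and 20%, beside 38.6% and 34.4% of all genes. With probes detected on all 6 arrays, 3 fell. Slc7a11, which imports cystine in exchange for glutamate, had levels of 5.94, 4.36 and 5.85 in YfpCM, where it was detected on 2 arrays, against 9.80, 9.95 and 9.55 in eCSCs (20.9-fold lower). Slc6a9, a glycine transporter, was 27.5-fold lower, and Slc1a4 and Slc1a5, exchangers of neutral amino acids, were 8.75-fold and 8.40-fold lower, Slc1a5 with detection on 1 YfpCM array. Those that rose were Slc1a3, a glutamate transporter, at least 2.79-fold, Slc43a1, a carrier of large neutral amino acids, at least 1.82-fold, and Slc16a10, a carrier of aromatic amino acids, by 0.69 on the log2 scale, which lost its call after median scaling, without normalization, without background correction and with the mean of its probes. Cytosolic tRNA synthetases, which load amino acids onto tRNA, fell in 15 of 18 members tested and rose in none (median difference -2.01, or -1.93 with bounds). Aars, for alanine, had levels of 9.57, 9.72 and 9.67 in YfpCM and 12.13, 12.45 and 12.53 in eCSCs (6.56-fold lower). Nars, Lars, Rars, Vars and Sars, for asparagine, leucine, arginine, valine and serine, were 9.03-, 7.96-, 8.15-, 7.87- and 7.36-fold lower. Cars, Kars and Qars, for cysteine, lysine and glutamine, were not called, with differences of -0.72, -0.53 and 0.10, and are named because they complete the count.

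**Figure D3:**
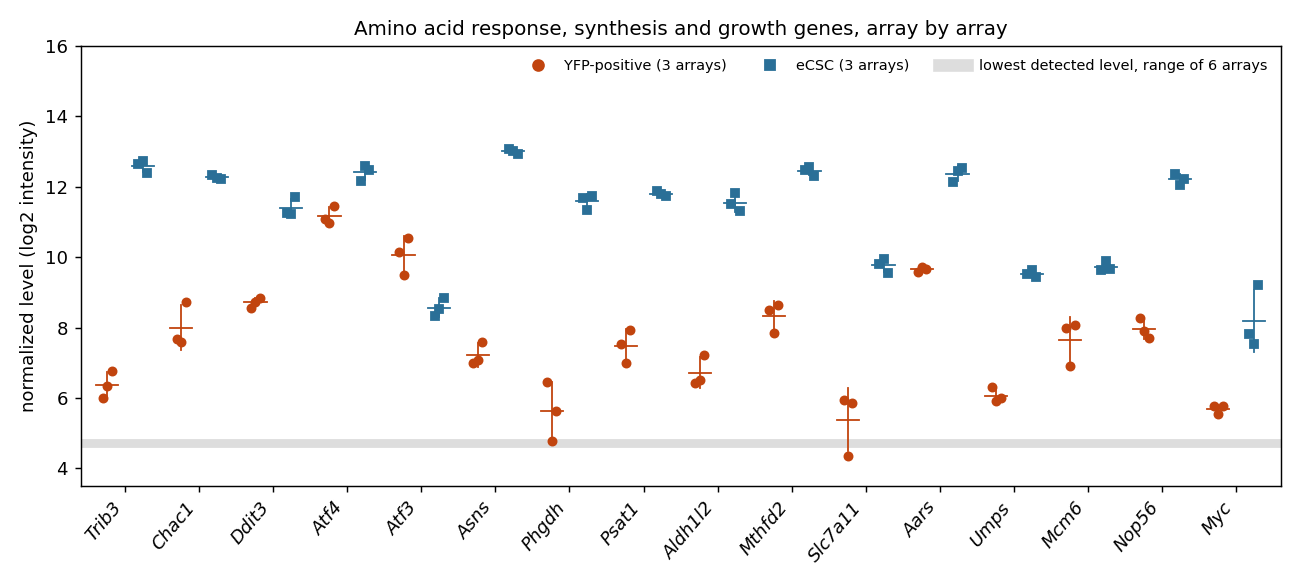
Levels (log2 intensity, vertical axis) of 16 genes of the amino acid response, synthesis and growth on each array, YfpCM (circles) left of eCSC (squares), with group means and SD as lines and the range of the lowest detected level in grey. Trib3, Asns and Phgdh differ by -6.22, -5.78 and -5.98, Atf4 by -1.25, and of the genes drawn only Atf3 is higher in YfpCM.

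Nucleotide synthesis and DNA replication were lower in YfpCM almost without exception. Of 21 nucleotide enzymes tested, 19 fell and none rose (median difference -1.59), and of 33 members of the replication machinery, 32 fell (median -1.72). Umps, which completes uridine monophosphate, had levels of 6.30, 5.90 and 5.99 in YfpCM against 9.51, 9.63 and 9.43 in eCSCs (11.01-fold lower). Atic, which completes the purine ring, was 9.23-fold lower, Tk1, the thymidine kinase of S phase, was 4.27-fold lower, and Rrm2, the cell-cycle subunit of ribonucleotide reductase, was 3.78-fold lower. Mcm10, an initiator of replication, was 14.8-fold lower, and Mcm2, a subunit of the replicative helicase, 4.08-fold lower. Mcm2 was detected on every array, with levels of 7.66, 6.75 and 7.53 in YfpCM against 9.68, 9.51 and 8.83 in eCSCs. Gins2, part of the same helicase complex, was the member not called (difference -0.39). YfpCM replicate 2 was the lowest array of its group for Mcm2, Mcm10 and Mcm6. DNA repair genes fell in 12 of 15 members tested and rose in 1 (median -0.99). Xrcc6, the Ku70 subunit that binds broken ends, fell by 2.17 on the log2 scale.

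The E2F element TTTNNCGC, to which E2F factors bind in S-phase genes, was searched in the promoter windows on both strands. It was matched in 10 of 31 windows of 26 replication genes (32.3%), against 5.17% of all windows. Chromatin genes held it in 7 of 25 windows (28%) and splicing factors in 8 of 39 (20.5%). The window of Mcm6, a helicase subunit named after its values were seen and 4.23-fold lower in YfpCM, is shown because it held 3 matches, of which the first and second overlap (chr1:128359656-128359955, minus strand).
Mcm6: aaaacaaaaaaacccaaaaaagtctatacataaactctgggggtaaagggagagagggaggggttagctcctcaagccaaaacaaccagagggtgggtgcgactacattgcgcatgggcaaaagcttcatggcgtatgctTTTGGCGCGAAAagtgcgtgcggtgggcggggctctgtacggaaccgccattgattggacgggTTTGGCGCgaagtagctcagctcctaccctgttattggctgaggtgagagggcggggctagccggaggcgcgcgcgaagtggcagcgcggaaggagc
The matches farthest from and nearest to the gene start read on the strand of the gene and the one between them on the other strand. The list was drawn from knowledge of S-phase genes, and the share is no test of the factor.

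Ribosome production followed the same direction. Of 32 genes of ribosome biogenesis tested, 30 fell and none rose (median difference -1.82). Nop56, a core protein of the particles that methylate ribosomal RNA, had levels of 8.28, 7.90 and 7.70 in YfpCM, against 12.37, 12.06 and 12.21 in eCSCs. It was 19.1-fold lower, the largest fall of the list (SE 0.18, adjusted p = 5.85e-11). Nhp2 and Gar1, of the particles that make pseudouridine, were 8.25-fold and 6.09-fold lower, and Pes1 and Bop1, partners in the maturation of the large subunit, 5.73-fold and 6.82-fold lower. Myc, the factor that drives many of these genes, had levels of 5.76, 5.55 and 5.76 in YfpCM and 7.82, 7.55 and 9.19 in eCSCs, 5.64-fold lower with a wider spread in eCSCs. The E-box CACGTG, a Myc-type element, was present in 9 of 34 windows of the list (26.5%) against 7.15% of all windows, and in 8 of 26 windows (30.8%) of the lysosomal genes, of which 15 of 26 rose and 7 after median scaling. Translation factors fell in 19 of 29 members and rose in 4 (median -1.23). Eif6, which keeps ribosomal subunits apart, was 6.55-fold lower, and Eif5a, the protein that carries hypusine, 4.17-fold lower. Eef1a2, the elongation factor of muscle and nerve, rose against this direction, with levels of 12.24, 12.75 and 12.03 in YfpCM and no detection in eCSCs (at least 193-fold higher), while its widespread paralogue Eef1a1 was not called (difference -0.25, named after its values were seen).

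Nuclear pore and transport genes fell in 19 of 22 members and rose in 1 (median difference -1.74). Ran, the GTPase that gives transport its direction, had levels of 6.43, 6.59 and 6.55 in YfpCM against 8.93, 8.43 and 8.78 in eCSCs (4.56-fold lower), and its exchange factor Rcc1 was 4.27-fold lower. Nup43 and Nup160, of the outer pore ring, were 7.17-fold and 5.06-fold lower. Nup210, a membrane pore protein with a role in muscle differentiation, was 2.91-fold higher, a call lost without normalization (0.96). Splicing factors parted in the same way: 21 of 30 fell and 5 rose (median -1.27). Those that fell were led by core proteins such as Snrpd1 (5.12-fold) and Snrpf (3.95-fold). Those that rose were regulators of muscle or nerve exons. Qk had levels of 9.78, 10.39 and 9.95 in YfpCM and 5.08, 4.76 and 4.84 in eCSCs (35.4-fold higher, detected on 2 eCSC arrays), and Rbfox1 had 9.02, 9.65 and 9.24 against 4.39, 4.29 and 4.75 (28.4-fold higher, detected on 1 eCSC array). Celf2 rose by 1.75, Rbm24, needed for cardiac splicing, by 1.57 and Mbnl2, named after its values were seen, by 0.65 on the log2 scale. Chromatin genes fell in 14 of 21 members and rose in 2 (median -0.92). Ezh2, which methylates histone H3 in gene silencing, had levels of 8.51, 6.56 and 8.18 in YfpCM against 9.62, 9.49 and 9.30 in eCSCs; its difference was -1.72 with all arrays and -1.13 without YfpCM replicate 2. Tet1, which oxidises methylcytosine, was detected on all YfpCM and no eCSC array and was at least 4.76-fold higher.

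Protein quality control changed in composition. Of 28 proteasome members tested, 23 fell and 1 rose (median difference -0.83). The member that rose was Psme4, an activator cap, 2.58-fold higher. Psmb1, a core subunit, had levels of 8.38, 9.99 and 9.64 in YfpCM against 11.92, 11.96 and 12.24 in eCSCs (6.51-fold lower), and Psmb3 and Psmc5 were 2.80-fold and 2.77-fold lower. The inducible subunits moved the other way. Psmb8 had levels of 9.03, 7.90 and 7.88 in YfpCM and was undetected in eCSCs (at least 11.5-fold higher), Psmb9, detected on 1 eCSC array, was 4.13-fold higher and the activator subunit Psme1 3.87-fold higher. Within immunoproteasome and antigen presentation genes, 12 of 19 rose and 1 fell (median 1.11, or 0.80 with bounds). Of the 19, 5 were undetected in eCSCs, and with probes detected on all 6 arrays 6 rose. The class II genes H2-Ab1 and H2-Eb1, which leukocytes express, were at least 10.5-fold and 6.96-fold higher, with leukocyte marker sums of 2375 to 7612 in YfpCM beside 355 to 630 in eCSCs. The part of these cells in the result was not tested. Among chaperones, 18 of 29 fell and 9 rose (median -0.92). The chaperonin ring fell, with Cct6a 5.02-fold, Cct3 3.31-fold and Tcp1 2.84-fold lower, as did Hsp90aa1 (2.89-fold). The small heat shock proteins of striated muscle rose: Hspb7 had levels of 10.66, 10.72 and 10.81 in YfpCM and no detection in eCSCs (at least 63.4-fold higher), Cryab was 15.1-fold and Hspb6 13.5-fold higher.

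In the endoplasmic reticulum, 7 of 20 folding and stress genes fell and 1 rose (median -0.34), with 12 not called. The falls were 35%, beside 38.6% of all genes. The number that fell was 11 without eCSC replicate 3 and 12 after median scaling. Hspa5 (BiP), the main sensor-binding chaperone, was not called, with levels of 5.07, 5.31 and 5.78 in YfpCM and 5.68, 5.82 and 5.79 in eCSCs. The lowest detected levels were 4.59 to 4.80 on these arrays. A probe this near background cannot show whether BiP changed. Hspa5 was called lower without YfpCM replicate 3 (-0.58). Ern1 (IRE1), which splices Xbp1, was 3.79-fold lower, and Dnajb9, a cochaperone of BiP, 2.67-fold higher. Translocon and vesicle coat genes fell in 15 of 30 members and rose in 5 (median -0.59), shares of 50% and 16.7% beside 38.6% and 34.4% of all genes. After median scaling 24 fell, beside 4645 of 10024 genes. Srp54a, of the signal recognition particle, was 3.76-fold lower and Sar1a, the GTPase that starts COPII coats, 3.06-fold higher. Lysosomal genes rose in 15 of 26 and fell in 6 (median 0.53), and 7 rose after median scaling or without normalization. Ctsk, a cathepsin of bone-resorbing cells and fibroblasts, was at least 15.03-fold higher, beside the fibroblast sum given above, whose part was not tested. Ctsf, another cathepsin, was at least 9.18-fold higher, Lipa, the acid lipase, 5.11-fold higher and Psap, the saposin precursor, 4.91-fold higher, while Cd63, a membrane protein of late endosomes, was 2.01-fold lower. In autophagy, 8 of 20 rose and 6 fell (median 0.31, and -0.32 after median scaling). These shares of 40% and 30% stood beside 34.4% and 38.6% of all genes. Ulk1, the kinase that starts autophagy, was 6.00-fold higher, Map1lc3a 9.77-fold higher and the cargo receptor Sqstm1 2.70-fold lower.

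The heart burns fatty acids, lactate, ketones and branched-chain amino acids in large mitochondria, and keeps glycogen and triglyceride as local reserves. These oxidative and storage genes were higher in YfpCM. Of 23 genes of the citric acid cycle and pyruvate dehydrogenase tested, 20 rose and 1 fell (median difference 1.81). Ogdh, the oxoglutarate dehydrogenase, had levels of 12.23, 12.59 and 12.07 in YfpCM against 7.34, 7.40 and 7.69 in eCSCs (28.2-fold higher, adjusted p = 4.19e-11). Dlat, of pyruvate dehydrogenase, was 14.2-fold higher and Idh3a 10.01-fold higher. The kinases that shut pyruvate dehydrogenase rose too, Pdk4 by 11.5-fold and Pdk2 by at least 11.7-fold. Idh3b was the member that fell, 2.04-fold by its brightest probe, and another probe of the gene was called higher. Branched-chain amino acid breakdown rose in 13 of 17 members and fell in 1 (median 1.61), Auh, an enzyme of the leucine branch, whose call was lost with median scaling to the probes found on all 9 arrays (-0.20). Bckdha, of the rate-limiting dehydrogenase, had levels of 10.37, 10.93 and 10.15 in YfpCM against 7.29, 7.43 and 7.44 in eCSCs (8.56-fold higher). Ppm1k, the phosphatase that activates it, was 15.3-fold higher, and Pccb and Mcee, which feed propionyl carbon into the cycle, 16.2-fold and 9.82-fold higher. Bcat1, described above, lay lower, while the mitochondrial transaminase Bcat2 was 5.65-fold higher; Bcat2 was named after its values were seen.

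Regulators of mitochondrial genes changed unevenly, with 8 of 19 higher and 3 lower (median 0.32). These shares were 42.1% and 15.8%, beside 34.4% and 38.6% of all genes. Ppargc1a (PGC-1alpha), the coactivator that drives mitochondrial biogenesis, had levels of 9.99, 10.48 and 9.89 in YfpCM and was undetected in eCSCs (at least 41.6-fold higher). Ppargc1b was 30.8-fold higher, and the nuclear receptors it works with, Esrra, Esrrb and Esrrg, were 6.85-fold, at least 15.3-fold and at least 6.55-fold higher. Perm1, a muscle regulator downstream of them, was at least 123-fold higher, among the largest rises outside muscle and marker genes, and Mfn2, which fuses mitochondria, 7.06-fold higher. The factors that copy and transcribe mitochondrial DNA did not follow: Tfam had levels of 7.82, 7.99 and 7.60 in YfpCM against 8.56, 8.62 and 8.22 in eCSCs, a difference of -0.66 (adjusted p = 0.014), which lost its call without YfpCM replicate 3 (-0.56) or without eCSC replicate 2 (-0.59). Tfb1m fell by 0.99 on the log2 scale. Mitochondrial ribosomal proteins fell in 18 of 41 members and rose in 6 (median -0.13), a share of falls of 43.9% beside 38.6% of all genes. After median scaling 28 fell (median -0.83), beside 4645 of 10024 genes. The fall of Mrps22, 3.98-fold, was the largest.

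Glycogen genes rose in 12 of 15 members tested and fell in none (median 1.77, or 1.60 with bounds), and 6 of the 15 were undetected in eCSCs. Pygb, a glycogen phosphorylase, had levels of 11.43, 11.74 and 11.09 in YfpCM against 6.14, 6.60 and 6.01 in eCSCs (36.0-fold higher). The muscle phosphorylase Pygm was at least 16.9-fold higher, and Ppp1r3c, which targets phosphatase to glycogen, at least 74.9-fold higher. Gys1, the muscle glycogen synthase, was not called (difference -0.46, named after its values were seen). Triglyceride storage and lipolysis rose in 13 of 18 members and fell in 2 (median 1.90). Of the 18, 5 were undetected in eCSCs, and with probes detected on all 6 arrays 8 rose. Plin4 and Plin5, coat proteins of lipid droplets in oxidative tissue, were at least 69.8-fold and 38.5-fold higher. Plin2, the droplet coat of most other cells, had levels of 7.03, 6.58 and 6.65 in YfpCM and 8.69, 8.32 and 8.29 in eCSCs (3.20-fold lower), and Hilpda, a lipase inhibitor induced by hypoxia, was 2.50-fold lower. Dgat2, the last enzyme of triglyceride synthesis, was 20.1-fold higher. Acss1, which activates acetate in mitochondria, was at least 160-fold higher.

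**Figure D4:**
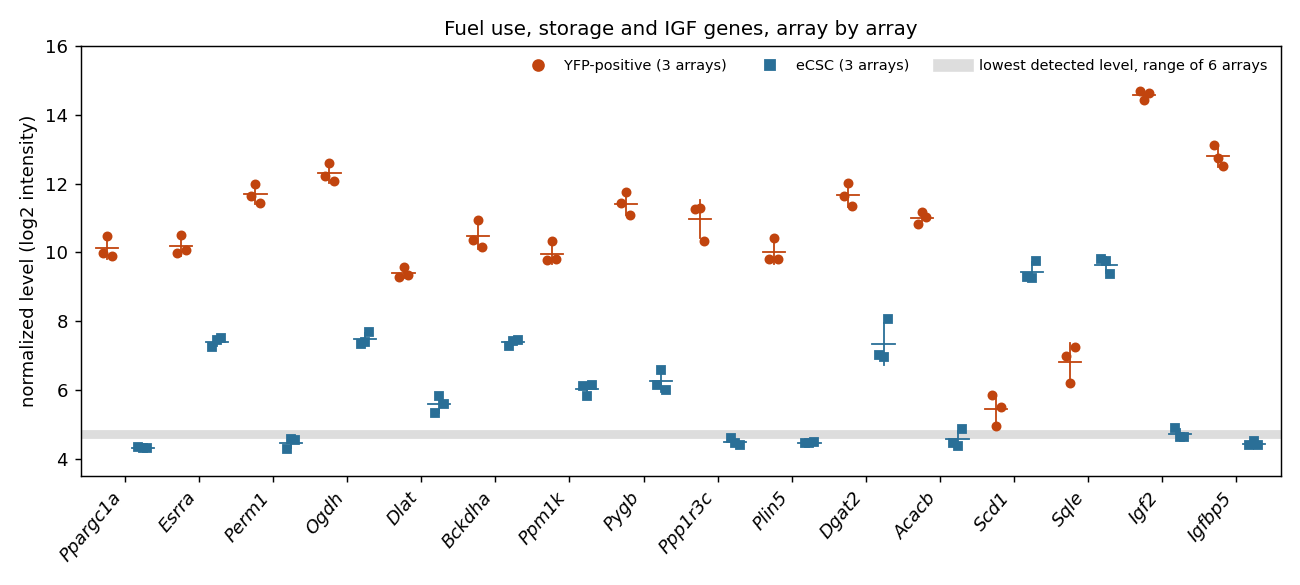
Levels (log2 intensity, vertical axis) of 16 genes of fuel use, storage, lipid synthesis and IGF signalling on each array, YfpCM (circles) left of eCSC (squares), with group means and SD as lines and the range of the lowest detected level in grey. Ppargc1a, Perm1, Ppp1r3c, Plin5 and Igfbp5 are at background in all eCSC arrays; of the genes drawn only Scd1 and Sqle are lower in YfpCM.

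Cholesterol synthesis and uptake fell in 10 of 13 members and rose in 1 (median -0.62); with median scaling to the probes found on all 9 arrays, 5 fell. Msmo1 and Sqle, a methyl sterol oxidase and the squalene epoxidase, were 9.21-fold and 7.08-fold lower, and Cyp51 5.71-fold lower. Sqle had levels of 6.98, 6.22 and 7.26 in YfpCM against 9.80, 9.75 and 9.37 in eCSCs. Hsd17b7, also a sterol enzyme, was 3.75-fold higher. The sterol response element TCACNCCAC was found in 0 of 11 promoter windows of the list, against 1.24% of all windows, which says only that these letters are absent there. Fatty acid synthesis and desaturation fell in 6 of 14 members and rose in 4 (median -0.27), shares of 42.9% and 28.6% beside 38.6% and 34.4% of all genes. With median scaling to the probes found on all 9 arrays, the medians were -0.0046 for the cholesterol list and -0.0017 for the fatty acid list. Scd1, the stearoyl desaturase, had levels of 5.84, 4.95 and 5.51 in YfpCM against 9.30, 9.25 and 9.76 in eCSCs (15.97-fold lower). Acacb, the carboxylase that restrains fatty acid entry into mitochondria, was 86.9-fold higher, with levels of 10.83, 11.17 and 11.02 in YfpCM and detection on 1 eCSC array.

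The transcription factor NRF2 (Nfe2l2) answers oxidants and electrophiles with detoxifying enzymes. Of 22 genes listed for this response and tested, Nfe2l2 among them, 11 fell and 6 rose (median -0.42), the falls being 50% beside 38.6% of all genes. Nqo1, the quinone reductase, had levels of 6.83, 6.94 and 6.43 in YfpCM against 9.91, 9.93 and 8.99 in eCSCs (7.36-fold lower). Aldh3a1, an aldehyde dehydrogenase detected on 1 YfpCM array, was 12.0-fold lower and Gclm, of glutathione synthesis, 2.66-fold lower, while Gsta4, a transferase for lipid aldehydes, was 15.8-fold higher. Nfe2l2 itself was 1.82-fold lower (adjusted p = 0.0067). Hmox1, the haem oxygenase, had overlapping groups and a difference of -0.99 that lost its call without YfpCM replicate 2 (-0.40) or without eCSC replicate 3 (-0.76). The antioxidant response element TGACNNNGC was matched in 8 of 23 windows of the list (34.8%), against 12.4% of all windows and 9 of 24 (37.5%) in the translocon and coat list. Superoxide, peroxide and thioredoxin enzymes rose in 10 of 20 members and fell in 3 (median 0.40, or 0.32 with bounds). Without YfpCM replicate 3, 6 rose, and the median was -0.20 after median scaling. Gpx3, a secreted glutathione peroxidase, and Prdx4, the peroxiredoxin of the secretory pathway, were at least 85.4-fold and 68.4-fold higher, and Sod2, the mitochondrial dismutase, 2.92-fold higher. Txn1 was 2.57-fold lower. Iron, haem and metallothionein genes rose in 10 of 19 and fell in 4 (median 0.65). Tfrc, the transferrin receptor, was 4.60-fold higher and Alas1, the first enzyme of haem synthesis, 5.002-fold higher, while the ferritin light chain Ftl1 was 3.56-fold lower. Erythroid marker sums were 24413 to 30925 in YfpCM against 21 to 31 in eCSCs, and the part of these cells in the haem and iron genes was not tested.

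**Figure D5:**
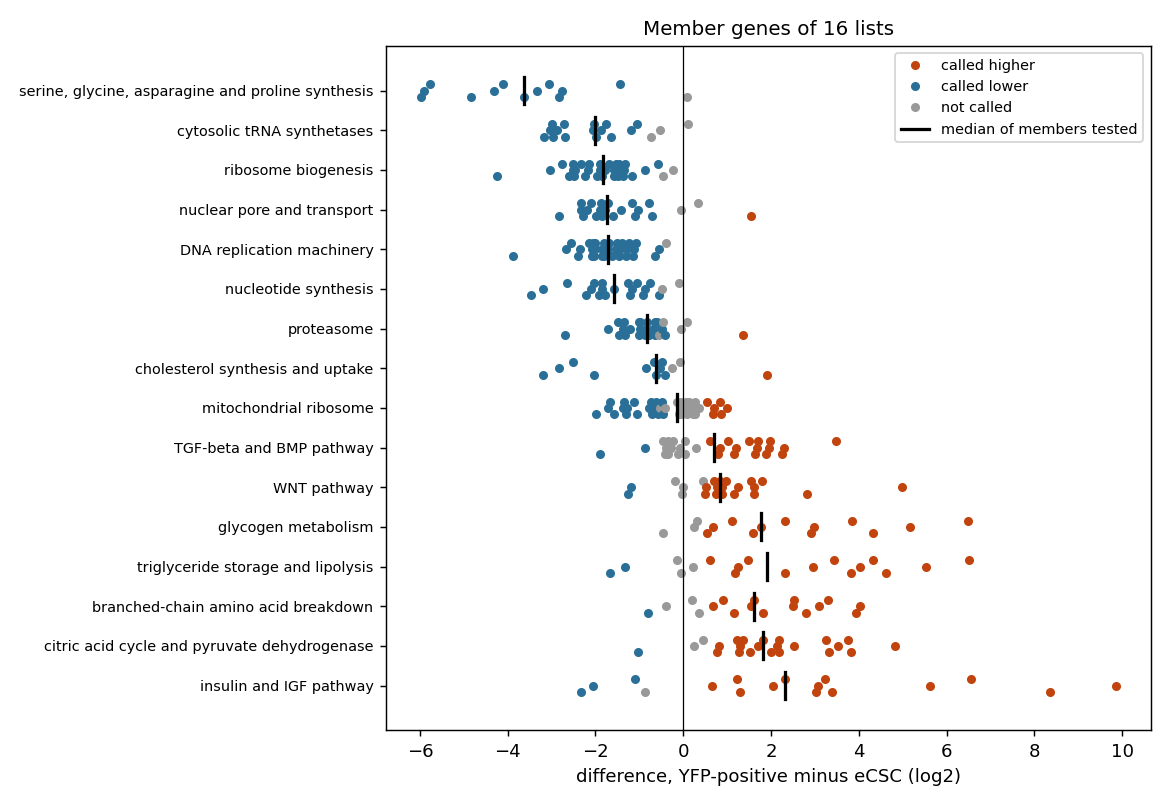
Difference between YfpCM and eCSC (log2, horizontal axis) of each tested member of 16 lists; points are genes, coloured by call, and black lines are medians. Serine and related enzymes centre on -3.63 and the insulin and IGF list on 2.33, while mitochondrial ribosomal proteins straddle 0 with a median of -0.13. Of the 17 insulin and IGF members, 5 were undetected in eCSCs.

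Insulin-like growth factors and insulin act through related receptors, and a family of binding proteins holds the factors in the tissue. Of 17 members tested, 13 rose and 3 fell (median difference 2.33). Of the 17, 5 were undetected in eCSCs, so that they passed the filter through the other arrays. With probes detected on all 6 arrays, 6 rose. Igf2, the fetal growth factor, had levels of 14.69, 14.42 and 14.64 in YfpCM against 4.90, 4.64 and 4.63 in eCSCs, where it was detected on 1 array (927-fold higher, difference 9.86, SE 0.19). Igf1, detected on 2 eCSC arrays, was 5.01-fold higher. Of the receptors, Insr was 9.39-fold and Igf2r, which clears Igf2, 10.5-fold higher. Igfbp5 was at least 266-fold higher, with levels of 13.13, 12.75 and 12.52 in YfpCM, while Igfbp4 was 4.15-fold lower. Grb10, which restrains the receptors, was at least 74.6-fold and Slc2a4, the insulin-regulated glucose carrier, at least 37.9-fold higher. Igf2bp1, an RNA-binding protein that attaches to the Igf2 message, was 5.06-fold lower. Of 27 growth factor ligands, receptors and MAP kinase feedback genes tested, 11 were higher and 10 lower. These shares of 40.7% and 37% lay near the 34.4% and 38.6% of all genes. The median was -0.04, and 0.42 with median scaling to the probes found on all 9 arrays. Fgf7, a growth factor that mesenchyme sends to epithelium, was undetected in YfpCM and had levels of 10.46, 10.23 and 10.37 in eCSCs (at least 52.2-fold lower). Pdgfc was at least 7.42-fold lower in YfpCM, Bdnf 10.7-fold and the MAP kinase target Etv4 11.4-fold lower. Fgf1 and Fgf13 were 17.1-fold and at least 19.8-fold higher in YfpCM, and Pdgfb, which endothelium makes, 6.996-fold higher beside the endothelial sums given above.

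Wnt genes rose in 17 of 23 members tested and fell in 2 (median 0.84, or 0.63 with bounds), and 9 of the 23 were undetected in eCSCs, so that they passed the filter through the other arrays. Dkk3 and Sfrp1, secreted modulators, were at least 21.9-fold and 5.33-fold higher. Axin2, a feedback target, had levels of 5.90, 4.89 and 5.73 in YfpCM, near background, and was undetected in eCSCs (at least 1.69-fold higher). Ctnnb1 (beta-catenin) was 2.92-fold higher and the receptor kinase Ror2 2.29-fold lower. The TGF-beta and BMP pathway rose in 16 of 30 members and fell in 2 (median 0.69, or 0.60 with bounds). Ltbp4, which stores latent TGF-beta in matrix, had levels of 10.64, 10.54 and 10.58 in YfpCM against 6.72, 7.20 and 7.39 in eCSCs (11.2-fold higher). Id1, a BMP target, was 3.90-fold and the receptor Tgfbr1 3.96-fold higher, while Inhba, the activin A chain, was 3.70-fold lower and Bmp4 was not called (difference -0.36, and 0.19 without eCSC replicate 3). In the Hippo list, 6 of 15 rose and 4 fell (median 0.24, and -0.41 after median scaling). These shares were 40% and 26.7%, beside 34.4% and 38.6% of all genes. Ccn2 (CTGF), a Yap1 target, was 3.70-fold higher and the receptor kinase Axl, another target, 4.70-fold lower. Fibroblast sums were 8298 to 10616 in YfpCM and 648 to 665 in eCSCs beside these pathways, and the part of fibroblasts was not tested.

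Of 38 Hox genes and cofactors listed, 14 were tested, of which 8 fell and 1 rose (median -0.57, or -0.47 with bounds). Hoxa5 had levels of 5.65, 5.40 and 5.31 in YfpCM against 8.33, 8.50 and 8.71 in eCSCs (8.32-fold lower). Hoxc6 was at least 7.90-fold lower, and Hoxb2 and Hoxb4, detected on 2 YfpCM arrays each, were 6.18-fold and 4.95-fold lower. Of 10 retinoid genes tested, 6 fell and 4 rose (median -0.56, and 0.0224 without the filter on dim probes), and 4 were undetected in eCSCs. Adh7, an alcohol and retinol dehydrogenase, was undetected in YfpCM and had levels of 11.84, 11.91 and 11.76 in eCSCs, at least 146-fold lower (adjusted p = 3.19e-14). Rxrg and Rarb, retinoid receptors, were at least 7.79-fold and 4.17-fold higher in YfpCM. Aldh1a2, which makes retinoic acid and marks epicardium, was at least 2.44-fold higher, beside epicardial marker sums of 1953, 536 and 983 in YfpCM and 306 to 493 in eCSCs. Of the 5 epicardial markers summed, Aldh1a2 itself among them, 4 were called higher and 1 lower (difference -1.87). Cell cycle inhibitors moved both ways. Of 16 p53 targets and inhibitors tested, 8 rose and 8 fell (median -0.03, or 0.02 with bounds). Each share was 50%, beside 34.4% and 38.6% of all genes. Cdkn2a and Cdkn2b, the inhibitors that build up in culture and ageing, were lower in YfpCM, Cdkn2a at least 4.62-fold and Cdkn2b, detected on 2 YfpCM arrays, 12.1-fold. Cdkn1c (p57), an inhibitor of the embryo and of imprinted expression, had levels of 11.98, 11.47 and 11.68 in YfpCM and was undetected in eCSCs (at least 125-fold higher), while Cdkn1a (p21) was 2.59-fold higher, a call lost after median scaling (0.64) and without normalization (0.58).

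Several lists lay near cell types other than myocytes. Axon guidance genes rose in 14 of 25 members and fell in 1 (median 1.62, or 1.21 with bounds). The rises were led by Robo4, a receptor of endothelium (at least 31.9-fold), and Nrp1, a coreceptor for VEGF (27.1-fold). Of the 25, 5 were undetected in eCSCs, and with probes detected on all 6 arrays 8 rose. Keratins and epithelial junctions rose in 10 of 13 members tested and fell in 1 (median 2.097, or 1.66 with bounds), with 7 undetected in eCSCs. Pkp2 and Dsg2, desmosome proteins of cardiomyocytes, were at least 54.3-fold and 24.0-fold higher, and Cldn5, a tight junction protein of endothelium, at least 73.2-fold higher. Krt8 had levels of 8.57, 6.64 and 8.41 in YfpCM against 4.89, 4.64 and 4.75 in eCSCs, a difference of 3.12, and 3.73 without YfpCM replicate 2. Cdsn, corneodesmosin of the skin, was the member that fell, with no detection in YfpCM and levels of 11.25, 11.76 and 11.84 in eCSCs (at least 126-fold lower). Complement genes rose in 9 of 12 and fell in 2 (median 1.55, or 1.36 with bounds), and 6 of the 12 were undetected in eCSCs. With probes detected on all 6 arrays, 2 rose and the median turned to -0.21. Serping1, the C1 inhibitor, and C1qb, made by macrophages, were at least 22.1-fold and 12.6-fold higher. Masp1 fell 3.63-fold by its brightest probe, and another of its probes was called higher. Chemokines and cytokines rose in 12 of 21 and fell in 5 (median 0.87, or 0.49 with bounds), with 8 undetected in eCSCs. With probes detected on all 6 arrays, 3 rose and the median turned to -0.20. Cxcl12, which holds stem cells in their niche, had levels of 11.42, 11.45 and 10.79 in YfpCM and was undetected in eCSCs (at least 89.1-fold higher). Ccl5, a chemokine of T cells detected on 2 YfpCM arrays, fell by 3.69 on the log2 scale, and Csf1, the growth factor of macrophages, was 6.19-fold lower. The prostaglandin list rose in 6 of 11 and fell in 3 (median 0.64), and 4 of the 11 were undetected in eCSCs. With probes detected on all 6 arrays, 1 rose and the median turned to -0.0767. Its members included the synthases Ptgds, detected on 1 eCSC array, 39.3-fold higher and Ptges at least 2.96-fold lower. The endothelial, fibroblast and leukocyte sums given above were all higher in YfpCM on every array, and their part in these lists was not tested. Cldn5 and C1qb are themselves among the markers summed.

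Clock genes rose in 5 of 13 and fell in 2, shares of 38.5% and 15.4% beside 34.4% and 38.6% of all genes. The number that rose was 3 after median scaling or without normalization. With median scaling to the probes found on all 9 arrays, 9 rose. Dbp, an output of the clock, had levels of 10.45, 10.88 and 10.12 in YfpCM against 6.42, 6.10 and 8.44 in eCSCs (11.3-fold higher, with a log2 difference of 4.22 without eCSC replicate 3), Arntl (Bmal1) was 1.96-fold lower and Ciart 7.85-fold lower; the hour of harvest is not stated in the labels. Genes that glucocorticoids raise rose in 8 of 14 and fell in 2 (median 1.05, or 0.96 with bounds), and 4 rose after median scaling. Fkbp5, a common indicator, was 2.77-fold lower, with YfpCM levels of 7.12, 5.44 and 5.93, and Pik3r1 13.03-fold higher. Tsc22d3, named in advance like Fkbp5, rose by 0.77 on the log2 scale, a call lost after median scaling (0.05). Dusp1 rose by 2.34. Hypoxia genes rose in 7 of 16 and fell in 4 (median 0.46, and -0.12 after median scaling). These shares were 43.8% and 25%, beside 34.4% and 38.6% of all genes. Egln1, an oxygen sensor detected on 1 eCSC array, was 6.18-fold and Vegfa 2.34-fold higher, the call of Vegfa being lost after median scaling (0.53) and without normalization (0.47), while Hif1a was 2.28-fold lower. Tubulins and nonmuscle actin binders fell in 12 of 26 and rose in 7 (median -0.33). The falls were 46.2% beside 38.6% of all genes, and the rises 26.9% beside 34.4%. Tuba8, a tubulin of heart and muscle, was at least 21.2-fold higher, and Anxa3 and Anxa1, annexins, 5.29-fold and 4.26-fold lower.

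Among the largest changes outside all lists, muscle genes and markers, YfpCM held Chchd10, a mitochondrial protein of muscle and nerve, at 13.30, 13.88 and 13.30 against 4.71, 4.94 and 5.46 in eCSCs (352-fold higher, detected on 2 eCSC arrays). Ces1d, a carboxylesterase, and Slc47a1, an exporter of organic cations, were at least 107-fold and 96.9-fold higher. Eln (elastin) was at least 111-fold and the immediate early gene Fos, detected on 2 eCSC arrays, 127-fold higher. The beta globin genes Hbb-bs and Hbb-bt, close copies whose probes may read each other, led the rises, beside the erythroid sums. Beta globin also stood in the erythroid marker list under other symbols, so that these rises do not stand apart from the markers. On the other side stood genes high in eCSCs. Prkg2, a cyclic GMP kinase, had levels of 4.47, 4.98 and 4.60 in YfpCM against 10.60, 10.61 and 10.05 in eCSCs (53.3-fold lower, detected on 2 YfpCM arrays). Steap1 and Steap2, membrane proteins of a metalloreductase family, were at least 37.2-fold and, with detection on 2 YfpCM arrays, 28.2-fold lower. Itgb7, an integrin chain of lymphocytes and mast cells detected on 2 YfpCM arrays, was 38.2-fold lower, against the direction of the leukocyte and mast cell sums. Klra4, a receptor of natural killer cells whose gene belongs to a family of close copies, so that its probe may read relatives, was at least 31.8-fold lower.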

How the data were processed

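RNA of 9 samples in 3 groups was measured on Illumina bead arrays, 1 array per sample. The deposited probe table holds linear intensity, without background subtraction or normalization, and a fraction per probe that rises with the signal, although the file headers call it a detection p; 1 minus that fraction was used as the detection p. Per the submitters' processing notes, R 2.15.3 and lumi 2.10.0 were used. The authors' normalized log2 values, whose method and centring no header or label states, served as an alternative only.

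Intensities were background-corrected with normexp from detection p-values (offset 16), quantile normalized and put on the log2 scale (limma 3.58.1, R 4.3.3). Probes were kept if detected (p under 0.05) on all 3 arrays of a group, which left 18180 of 45281. A gene was represented by its brightest detected probe, which gave 10024 of the 19053 genes with a probe, and 163 genes had probes called in opposite directions. A linear model on all 9 arrays with empirical Bayes moderation (limma) gave differences, SEs and p-values adjusted by Benjamini-Hochberg over all genes. Bounds use the lowest detected signal of each array. The number of arrays limits the precision. The same steps were run on simulated arrays in which few genes differed, with as many rises as falls. Most genes differed in the real data, so that this run cannot check the scaling. "With bounds" means that members undetected in a group were set at their bound.

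The members and gene lists were chosen with earlier results of these data known. Named genes are the largest changes outside muscle genes and markers, up to 6 members of the commoner direction and up to 4 of the other direction per list whose groups do not overlap, and a set of well-known genes. Same-numbered samples did not deviate together (correlations of 0.014, 0.033 and 0.026), so no pairing was used. Alternatives were other background, scaling, filter and probe rules, the authors' values, a replicate block and leaving out each array. Promoter windows are from RefSeq (GRCm38.p6). Figures were drawn with matplotlib 3.10.9.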

Additional observations from a re-analysis of the deposited data

How the results depend on the processing

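Across the alternatives, the total of called genes lay between 5068 and 7687, with the lowest number where only probes detected on all 6 arrays were tested, which removes genes undetected in a group. With the replicate number as a block, 7307 genes were called, 3437 higher and 3870 lower, close to the 7314 without the block, and no list count changed by over 1.5 times. Of the results for single genes over all alternatives, 9409 kept their side of the threshold, with the same sign where the gene was called, 145 lost the call, 1 gained it and 19 with a call changed sign.

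Genes changed by at least 2-fold numbered 1293 higher and 1130 lower without background correction, and 1353 and 1140 with the authors' normalized values. After median scaling 3517 genes were at least 2-fold lower. Without normalization 2249 genes were higher and 3688 at least 2-fold lower. With probes detected on all 6 arrays 1937 genes were higher, 1147 of them at least 2-fold.

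Several list counts moved with the scaling. After median scaling and without normalization, members called lower were 12 and 13 for endoplasmic reticulum folding and 24 and 23 for the translocon and coats, and 28 for the mitochondrial ribosome after median scaling. Members called higher were 5 and 5 for iron and haem, 5 and 5 for p53 targets, 7 and 7 for the lysosome, 5 and 4 for autophagy, 3 and 3 for the clock, 4 and 4 for glucocorticoid genes and 3 and 2 for the Hippo list. Superoxide enzymes had 6 without normalization. With median scaling to the probes found on all 9 arrays, 5 cholesterol genes were lower and 9 clock genes higher.

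With probes detected on all 6 arrays, members called higher were 5 for mitochondrial regulators, 5 for glycogen, 8 for triglyceride, 6 for the immunoproteasome, 4 for hypoxia, 6 for WNT, 4 for growth factors, 6 for insulin and IGF, 1 for prostaglandins, 3 for chemokines, 2 for complement, 8 for axon guidance and 2 for keratins. Members called lower were 3 for amino acid transporters and 2 for Hox genes. The medians of prostaglandins, chemokines and complement turned to -0.0767, -0.20 and -0.21, and that of mitochondrial regulators turned negative. The median of the retinoid list turned to 0.0224 without the filter on dim probes. Leaving out 1 array at a time, the endoplasmic reticulum list had 7 to 11 members lower, with 11 without eCSC replicate 3, and the superoxide list 6 to 10 higher, with 6 without YfpCM replicate 3.

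Called genes that changed sign were these. After median scaling and without normalization, the differences were -0.18 and -0.23 for Amotl1, -0.22 and -0.28 for Copb2, -0.0857 and -0.14 for Sec31a, -0.0662 and -0.12 for Vgll4, -0.0348 and -0.0895 for Wipi1 and -0.12 and -0.17 for Yap1. Without normalization, Mrps35 was at -0.0425 and Tsc22d3 at -0.001. With median scaling to the probes found on all 9 arrays, Lif was at 0.10, Opa1 at 0.024 and Rxra at 0.15. Bmp4 and Hspa5, which were not called, also changed sign, Bmp4 without eCSC replicate 3 and Hspa5 with this same scaling. With the mean of a gene's probes, Masp1 was at 0.28 and P4ha1 at -0.0556. Beyond the scaling and the genes tested, the cause of these changes was not tested.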
